A study of Homo sapiens with 6 samples.

Results

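9 long noncoding RNAs were followed in T24 cells, an established human bladder carcinoma line: UCA1, H19, MIR22HG, DANCR, NEAT1, MALAT1, GAS5, TUG1 and PVT1. They are 9 of 58825 genes in the deposited table and were found by gene symbol. They had been chosen by their levels and by their difference between the 2 groups compared here. Their values are therefore given as a description, without a test. Tests are kept for the genes around them, their partner proteins and other noncoding RNAs. The name under which they were grouped calls them abundant, and H19 went against it: by mean FPKM (fragments per kilobase of transcript, scaled to library size) it ranked 325 of 15117 long noncoding entries. The other 8 ranked between 4 (GAS5) and 112 (UCA1).

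Long noncoding RNAs are transcripts without a long reading frame, and many act as RNA. Some build or occupy nuclear bodies, some are chiefly carriers of small RNAs that are cut from their introns or exons, and some act near their own gene. UCA1 (urothelial cancer associated 1) was named for its expression in bladder carcinoma. H19 is an imprinted RNA of fetal tissues that is switched back on in many tumours, bladder tumours among them.

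RNA was sequenced in 2 groups of 3 libraries each. The control group carried the hairpin shNC-1 and has the genotype label WT. The other group, called the knockdown below, carried shDLGAP5-1, a hairpin against DLGAP5, which encodes a spindle protein of mitosis. Both groups are T24 cells grown in medium with fetal bovine serum, and the series asks what DLGAP5 does in bladder cancer. Only 1 hairpin against DLGAP5 was used here, so an effect of DLGAP5 and an effect of that hairpin cannot be told apart. The labels do not say that the libraries of a group came from separate cultures, so a p-value covers no more than the spread among these libraries, and that spread may be technical. In bulk RNA, fewer cells of a type and less RNA per cell cannot be told apart.

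DLGAP5 measured 33.0, 32.7 and 29.7 FPKM across control replicates 1, 2 and 3, and 5.03, 4.0 and 7.51 FPKM across knockdown replicates 1, 2 and 3. Its difference on the log2(FPKM + 1) scale was −2.37 (standard error 0.19, limma adjusted p = 0.000894), lower in the group labelled for its knockdown. Depth, estimated from the smallest steps of low values, was 21700000 to 27800000 fragments in shNC-1 and 13700000 to 18200000 in shDLGAP5-1. Of 12714 tested genes, 24.8% passed an adjusted p of 0.05, 15.3% higher and 9.52% lower in shDLGAP5-1, and 43.9% had groups that did not overlap. Of the calls, 61.6% were higher, a share that was 47.8% with libraries scaled to the same total, 49.3% after quantile normalization and 50% with a length trend removed. The libraries carried high KRT7, KRT8, KRT18 and VIM, keratins and the intermediate filament vimentin. KRT20 was listed at 0 in all 6 libraries, and the uroplakins UPK1A, UPK1B and UPK2, which mark differentiated urothelium, stayed at or under 0.201 FPKM. A further uroplakin, UPK3A, was listed at 0 in 5 libraries and at 2.28 FPKM in shDLGAP5-1 replicate 3. A list of 14 leukocyte and erythroid markers summed to 10.3 to 33.5 FPKM in 5 libraries and to 788 in shDLGAP5-1 replicate 3. LYZ made up 686 of that sum, which was 102 without LYZ against 8.52 to 12.4 in the other libraries. Every member's difference kept its sign without that library.

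UCA1, MIR22HG, H19 and DANCR were lower in the shDLGAP5-1 libraries, and NEAT1, MALAT1, GAS5, TUG1 and PVT1 were higher. For all 9, the 3 libraries of one group lay wholly above the 3 of the other in the deposited values. That count stands beside 43.9% of all tested genes, and since the choice of members used this contrast, nothing is read from it. 8 of the 9 reached 1 FPKM in at least 3 libraries and entered the fit over all genes, and H19 did not. Of those 8, 6 were past the threshold that 24.8% of tested genes passed, 4 higher (NEAT1, MALAT1, GAS5 and PVT1) and 2 lower (UCA1 and MIR22HG), again as a description. Over 15 other settings, UCA1, NEAT1 and MIR22HG stayed past it in all, GAS5 in 13, and MALAT1 and PVT1 in 4 each. Summed over the members, the level was 243, 250 and 275 FPKM in the controls and 460, 364 and 351 FPKM in the knockdown libraries. GAS5 alone made up 50.2% to 59.2% of each sum. Its mean went from 135 to 224 FPKM and that of NEAT1 from 30.8 to 75.6 FPKM. The change in the sum was thus not that of GAS5 alone.

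**Figure D1:**
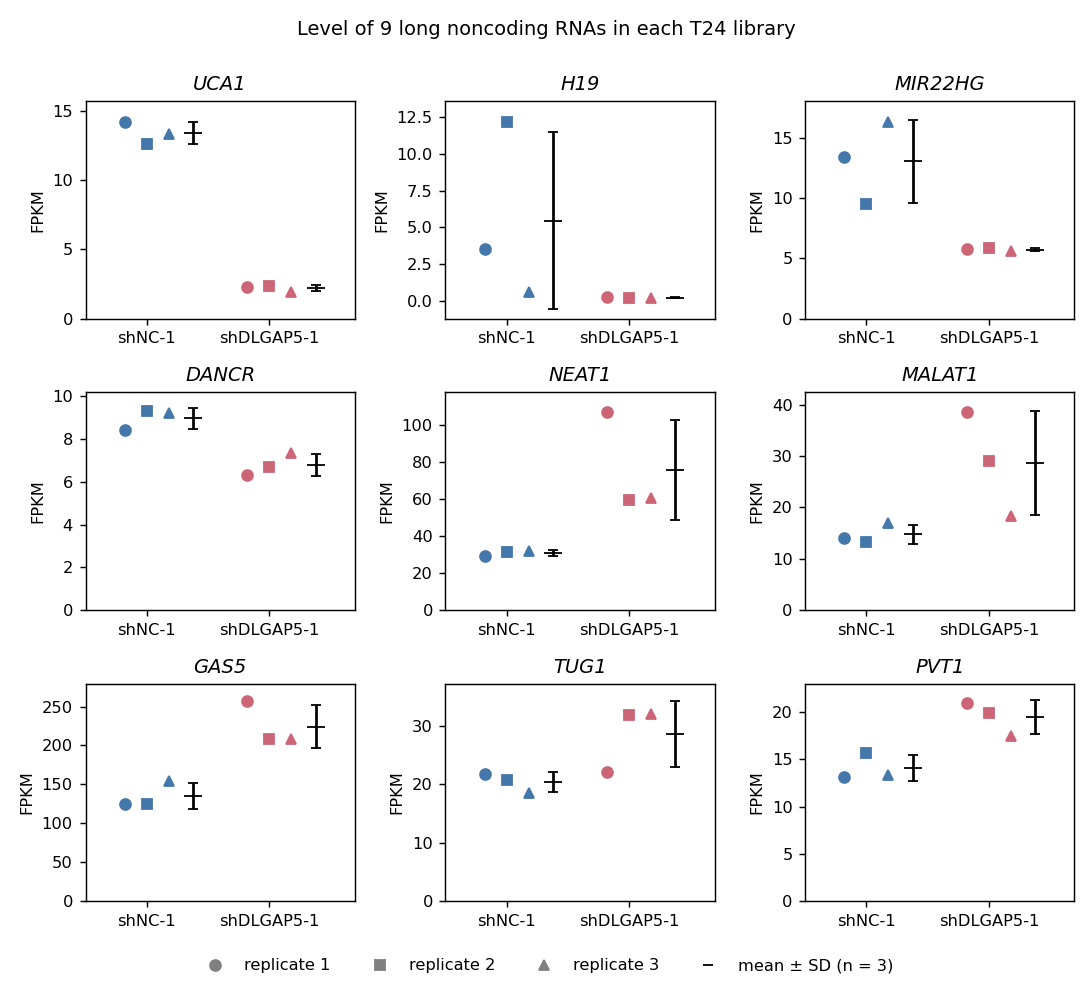
FPKM (vertical axes, linear) of the 9 long noncoding RNAs in the 3 shNC-1 (blue) and 3 shDLGAP5-1 (red) libraries; symbols give the replicate number, and the black bar is the mean with its SD. In every panel the groups do not overlap. UCA1 is tight in both groups, while H19 spreads over 0.628 to 12.2 FPKM among the controls.

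UCA1 had the largest log2(FPKM + 1) difference of the 9, although with a pseudocount of 0.1 that of H19 (−3.36) passed it (−2.56). In replicates 1, 2 and 3 it read 14.2, 12.6 and 13.3 FPKM with the control hairpin, and 2.27, 2.34 and 1.95 FPKM with the knockdown. The lowest control was thus about 10 FPKM above the highest knockdown library, and neither group spread by more than 1.20-fold. The means were 13.4 ± 0.796 and 2.19 ± 0.207 FPKM (SD, n = 3 each), 83.7% lower, and the log2 difference was −2.17. Among long noncoding entries, its rank by mean level went from 49 in shNC-1 to 465 in shDLGAP5-1. Fragments were estimated from these values, the depths and the longest annotated transcript, of 2687 bases. They came to about 828 to 942 per control library and 84 to 95 per knockdown library. The shortest transcript has 532 bases, and a shorter length would give fewer fragments. The gene (ENSG00000214049) lies on the plus strand of chromosome 19 from 15828206 to 15836326 (GRCh38) and has 36 transcripts in GENCODE 29, which the gene table does not separate. The 2 entries that overlap it stayed under 1 FPKM.

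MIR22HG is the host gene of microRNA miR-22, and it was lower in shDLGAP5-1. Its levels were 13.4, 9.49 and 16.3 FPKM in the controls and 5.79, 5.83 and 5.58 FPKM in the knockdown libraries. The controls differed among themselves by up to 1.72-fold, the knockdown libraries by 1.04-fold, and the lowest control was still above every knockdown library. Means were 13.1 ± 3.44 and 5.73 ± 0.134 FPKM (SD, n = 3 each), a log2 difference of −1.03. The gene (ENSG00000186594) spans bases 1711493 to 1717174 of chromosome 17, minus strand. The microRNA hairpin has its own table entry, MIR22, which read 9.73, 11.7 and 10.8 FPKM in the controls and 0.0818, 0.0723 and 2.83 FPKM in the knockdown libraries. Both entries were lower in the same 3 libraries. The hairpin lies within an exon of all 19 annotated MIR22HG transcripts, so reads of host and hairpin cannot be told apart, and mature microRNA was not measured. The mature forms are shown because they are what this RNA is known to deliver, with the seed (bases 2 to 8, which pair with targets) in capitals, from RefSeq on GRCh38.p14, minus strand. They lie at chr17:1713914-1713935 and chr17:1713952-1713973, and their seeds differ.
hsa-miR-22-3p: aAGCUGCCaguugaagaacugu
hsa-miR-22-5p: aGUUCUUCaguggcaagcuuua

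Among 16 tested host genes of other microRNAs, 4 rose and 1 fell, beside 15.3% of all tested genes higher and 9.52% lower. The median log2 difference was 0.21 against 0.03 over all tested genes. MIR503HG, the one that fell as MIR22HG was lower, went from 11.6, 13.6 and 13.7 FPKM to 8.49, 5.00 and 6.38 FPKM (log2 difference −0.90, limma adjusted p = 0.0138). Its groups did not overlap, and its call was lost without shNC-1 replicate 2 (limma adjusted p = 0.0552). MIR100HG rose from 17.8 ± 3.21 to 28.97 ± 1.90 FPKM (mean ± SD, n = 3 each; log2 difference 0.69, limma adjusted p = 0.0172), a call that 11 of 15 alternatives kept and that was lost without shDLGAP5-1 replicate 2. The other 3 that rose, FTX, MIR210HG and MIR193BHG, had log2 differences of 0.82, 0.82 and 1.12, and their means over all 6 libraries stayed under 5 FPKM, so they fall outside the rule for naming genes. The calls of FTX and MIR210HG were lost without shNC-1 replicate 1 or 3, and that of MIR210HG also without replicate 2. The count of 5 was 3 with libraries scaled to the same total, and 2 with no filter, with a filter of 5 FPKM or with a replicate block.

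H19 was lower in shDLGAP5-1, from a control group that did not hold together. It read 3.53, 12.2 and 0.628 FPKM in control replicates 1, 2 and 3, and 0.250, 0.177 and 0.208 FPKM in the knockdown libraries. The controls spanned a 19.5-fold range against 1.41-fold in the knockdown libraries, and shNC-1 replicate 3 was nearer to the knockdown libraries than to its own group. The means, 5.46 ± 6.04 and 0.212 ± 0.0367 FPKM (SD, n = 3 each), differed by less than the SD among the controls. On the log2(FPKM + 1) scale the difference was −1.93, and it was −1.16 without shNC-1 replicate 2. At the estimated depths and the longest transcript, of 2348 bases, the values correspond to about 180, 798 and 36 fragments in shNC-1. In shDLGAP5-1 they correspond to about 8, 6 and 9, and a shorter length would give fewer. H19 (ENSG00000130600) spans bases 1995176 to 2001470 of chromosome 11, minus strand. It hosts miR-675, whose hairpin lies in an exon of 4 of its 12 transcripts. The mature forms lie at chr11:1996768-1996787 and chr11:1996800-1996822 (minus strand, RefSeq, GRCh38.p14) and are shown with seeds in capitals, for comparison with miR-22. None of the 4 seeds printed here is shared.
hsa-miR-675-3p: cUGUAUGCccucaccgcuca
hsa-miR-675-5p: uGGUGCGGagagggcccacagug

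KRT5 and RN7SK were highest in the same control library as H19, shNC-1 replicate 2. The abundant keratins KRT7, KRT8 and KRT18 were highest in shNC-1 replicate 3 among the controls. KRT7 read 579, 566 and 645 FPKM in control replicates 1, 2 and 3, and KRT18 read 326, 324 and 386 FPKM. Both were lowest in replicate 2, though close to replicate 1. KRT8 read 358, 395 and 481 FPKM and was lowest in replicate 1. KRT5, a basal keratin, read 0.373, 3.95 and 0.0260 FPKM in the controls, and in all knockdown libraries it was listed at 0. TP63, a regulator of basal cells, read 0.0424, 0.152 and 0.0166 FPKM in the controls and 0.00906, 0.0121 and 0.0221 FPKM in the knockdown libraries. TP63 was highest in shNC-1 replicate 2 too, at a level near 0. By likeness of pattern over the 6 libraries, the nearest gene to H19 was RN7SK, the small nuclear RNA that holds back transcription elongation, at 318, 538 and 66.2 FPKM in the controls and 49.2, 91.9 and 57.0 FPKM in the knockdown libraries. RN7SK had overlapping groups and did not pass (log2 difference −1.81, limma adjusted p = 0.105). The whole epithelial and urothelial list of 18 markers summed to 2651, 2707 and 3014 FPKM in the controls and to 3086, 2904 and 2339 FPKM in the knockdown libraries, with 8 to 10 members at 1 FPKM or more. The part of these genes in the values of H19 was not tested.

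**Figure D2:**
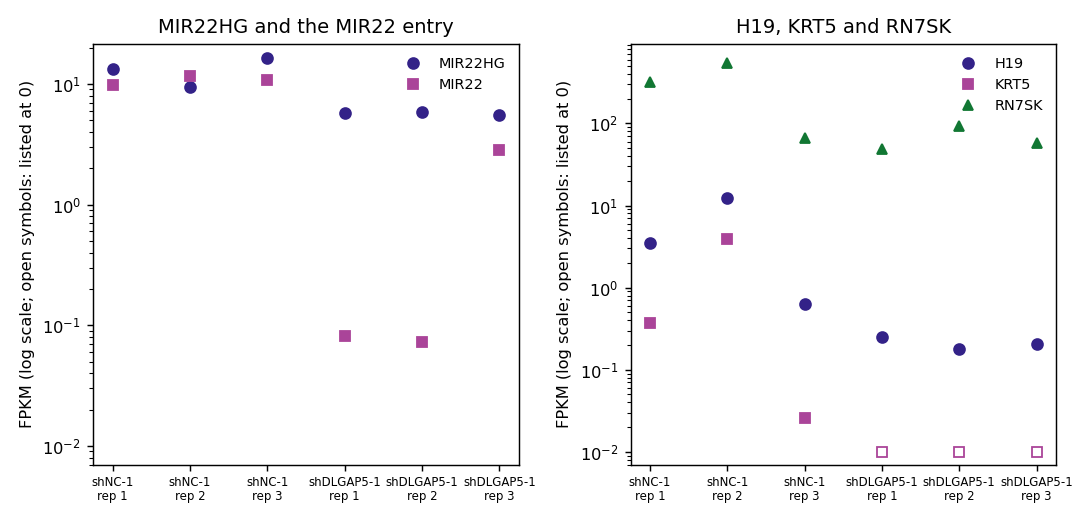
FPKM on a log axis in each of the 6 libraries, for MIR22HG with the MIR22 entry (left) and for H19 with KRT5 and RN7SK (right); open symbols mark values listed at 0. MIR22HG and MIR22 are both lower in the 3 shDLGAP5-1 libraries, and H19, KRT5 and RN7SK all peak in shNC-1 replicate 2.

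Imprinted genes that share the H19 domain or its growth network went both ways. Of 9 tested, 3 rose and 1 fell, beside 15.3% of all tested genes higher and 9.52% lower, with a median log2 difference of 0.04. CDKN1C, a CDK inhibitor of the same imprinted region, rose from 2.72, 3.02 and 2.33 FPKM to 8.54, 9.22 and 6.48 FPKM (log2 difference 1.29, limma adjusted p = 0.00253) and kept its call in all 15 alternatives. SLC22A18, a transporter next to it, rose from 7.45 ± 0.301 to 13.9 ± 3.16 FPKM (mean ± SD, n = 3 each; limma adjusted p = 0.0133), and that call was lost without shNC-1 replicate 2 (limma adjusted p = 0.0546). IGF2R, the receptor that clears IGF2, fell from 19.3 ± 2.20 to 9.63 ± 2.71 FPKM (mean ± SD, n = 3 each; log2 difference −0.96, limma adjusted p = 0.0144). That call was lost with no filter, and also when control replicate 1, control replicate 2 or knockdown replicate 2 was left out. IGF2, the growth factor gene beside H19, was low throughout, at 0.532 ± 0.0722 FPKM in the controls and 1.14 ± 0.178 FPKM in the knockdown libraries (mean ± SD, n = 3 each; log2 difference 0.48, limma adjusted p = 0.0249). H19 was lower where IGF2 was higher, but IGF2 reached 1 FPKM in the knockdown libraries only and entered the fit through them. Nothing is read from that contrast. The call of IGF2 held in 2 of the 9 alternatives in which it was tested. Leaving out 1 library left 1 to 3 of the 4 calls.

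DANCR, a noncoding RNA first described as holding back differentiation and the host of a snoRNA, was lower by a small difference that did not pass. It read 8.41, 9.31 and 9.20 FPKM in the controls and 6.32, 6.68 and 7.34 FPKM in the knockdown libraries, so that the nearest libraries of the groups lay about 1 FPKM apart. Means were 8.97 ± 0.49 and 6.78 ± 0.515 FPKM (SD, n = 3 each), a log2 difference of −0.36. It was past the threshold with the length trend removed, where its difference was −0.55. The gene (ENSG00000226950) lies on the plus strand of chromosome 4 from 52712404 to 52720351. SNORA26 and MIR4449, small RNAs inside it, stayed under 2.38 FPKM, with overlapping groups. Of 12 tested proteins of the PRC2 complex, which some of these RNAs are reported to bind, and of mRNA binding, 1 fell and none rose. Beside that count, 9.52% of all tested genes were lower and 15.3% higher. The gene that fell was IGF2BP1, an mRNA-binding protein, which went from 9.49 ± 0.460 to 6.71 ± 0.734 FPKM (mean ± SD, n = 3 each; log2 difference −0.45, limma adjusted p = 0.0331). Its call was kept in 7 of 15 alternatives and was lost without any one of the shNC-1 replicates and without shDLGAP5-1 replicate 1 or 2.

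NEAT1 and MALAT1 are neighbours on chromosome 11, 52.1 kb apart on the plus strand, and both were higher in shDLGAP5-1. NEAT1 is the scaffold of paraspeckles, nuclear bodies that hold RNA-binding proteins, and MALAT1 sits in nuclear speckles, the stores of splicing factors. NEAT1 read 28.99, 31.2 and 32.1 FPKM in the controls and 107, 59.3 and 60.5 FPKM in the knockdown libraries. Replicate 1 of the knockdown stood well above the others, which lay close together and still above every control. Means were 30.8 ± 1.62 and 75.6 ± 27.3 FPKM (SD, n = 3 each), 2.46-fold higher, with a log2 difference of 1.22. NEAT1 (ENSG00000245532, 65422774 to 65445540) has 8 annotated transcripts of 512 to 22743 bases. The short and the long form share their start, only the long one builds paraspeckles, and the gene value does not tell them apart.

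MALAT1 read 14.01, 13.3 and 16.9 FPKM in the controls and 38.5, 29.1 and 18.4 FPKM in the knockdown libraries. The knockdown libraries spanned 2.10-fold, and the lowest was within 1.5 FPKM of the highest control. Means were 14.7 ± 1.90 and 28.6 ± 10.1 FPKM (SD, n = 3 each), a log2 difference of 0.86. With shDLGAP5-1 replicate 1 left out the difference was 0.62, and with replicate 3 left out it was 1.14. MALAT1 (ENSG00000251562) lies from 65497688 to 65506516. Its end is shown because it decides which RNA a library for mRNA can catch: RNase P cuts just before a tRNA-like small RNA, and the new end is closed by an A-rich tract of the gene itself instead of an added poly(A) tail. The capitals mark that run of 13 A, and the second sequence is the small RNA, at chr11:65506017-65506116 and chr11:65506117-65506173 (plus strand, GRCh38, GENCODE 29). The labels name a kit for mRNA libraries, and whether it selects poly(A) is not given in the sources used here.
MALAT1, 100 bases before the cut: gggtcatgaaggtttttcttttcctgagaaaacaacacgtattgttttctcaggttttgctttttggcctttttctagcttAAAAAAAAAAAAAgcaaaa
MALAT1, tRNA-like small RNA: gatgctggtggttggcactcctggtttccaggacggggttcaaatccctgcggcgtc

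Of 18 tested paraspeckle proteins, none rose and 2 fell, beside 9.52% of all tested genes lower, with a median log2 difference of −0.21. HNRNPH3 fell from 92.9, 92.9 and 90.8 FPKM to 66.4, 61.9 and 71.1 FPKM (log2 difference −0.47, limma adjusted p = 0.0151). Its groups did not overlap, and its call was lost with a replicate block, without shNC-1 replicate 1 or 2 and without shDLGAP5-1 replicate 2. The list gave 4 falls with the length trend removed and none without shNC-1 replicate 1.

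Of 14 tested nuclear speckle proteins, CLK1, a kinase of splicing factors, rose from 26.3 ± 0.838 to 40.0 ± 5.00 FPKM (mean ± SD, n = 3 each; log2 difference 0.58, limma adjusted p = 0.0145). U2AF2, which recognises the polypyrimidine tract of introns, fell from 70.9 ± 2.10 to 53.0 ± 5.42 FPKM (mean ± SD, n = 3 each; log2 difference −0.42, limma adjusted p = 0.0306). No other speckle protein passed, where 24.8% of all tested genes did, and the list median was −0.09. The call of CLK1 was lost without shNC-1 replicate 2 only, and that of U2AF2 without any of 5 libraries, shDLGAP5-1 replicate 3 being the exception. The RNase P and tRNA end-processing list, whose enzymes cut the MALAT1 end, had 3 falls and no rise among 10 tested genes (median −0.28). Of all tested genes, 9.52% were lower. POP1, a subunit of RNase P, fell from 9.65, 11.3 and 11.97 FPKM to 4.42, 6.13 and 6.55 FPKM (log2 difference −0.85, limma adjusted p = 0.0112) and kept its call in all 15 alternatives. ELAC2, the enzyme that trims the other end of the tRNA-like piece, fell from 36.6 ± 1.34 to 25.5 ± 3.62 FPKM (mean ± SD, n = 3 each; log2 difference −0.52, limma adjusted p = 0.0265), with its call kept in 9 of 15 alternatives. RPP14, the other gene of the 3, is a lower one with a log2 difference of −0.45 (limma adjusted p = 0.0442). The calls of ELAC2 and RPP14 were lost without any one of the shNC-1 replicates and without shDLGAP5-1 replicate 2, and that of RPP14 also without shDLGAP5-1 replicate 3.

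GAS5 was the most abundant of the 9 in every library and was higher in shDLGAP5-1. It is a host of many snoRNAs, small RNAs that guide the modification of ribosomal RNA, and its spliced RNA is known to be removed by nonsense-mediated decay when it is translated. It read 125, 125 and 155 FPKM in the controls and 257, 208 and 208 FPKM in the knockdown libraries. The lowest knockdown library stood more than 50 FPKM above the highest control. Means were 135 ± 17.1 and 224 ± 28.0 FPKM (SD, n = 3 each), a log2 difference of 0.73. GAS5 (ENSG00000234741) spans bases 173858559 to 173868882 of chromosome 1 (minus strand) and has 29 annotated transcripts.

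GAS5 and several other snoRNA hosts belong to the 5′ terminal oligopyrimidine class, whose RNAs begin with C and a run of pyrimidines, as those of ribosomal proteins do. The first 30 bases of GAS5 and 4 other snoRNA hosts are shown to compare this feature, with the opening run of C and T in capitals. The GAS5 sequence, at chr1:173867960-173867989 on the minus strand, is the start of 1 of its 29 transcripts in GENCODE 29, chosen for this feature. Of the 29, 6 begin with the same run, the other 23 begin with other letters, and the RefSeq start, which begins with A, lies upstream. From RefSeq (GRCh38.p14), ZFAS1 starts at chr20:49278642-49278671 (plus), SNHG5 at chr6:85678704-85678733 (minus), SNHG1 at chr11:62855856-62855885 (minus) and DANCR at chr4:52712394-52712423 (plus). The run is 6 bases in this GAS5 transcript, 5 in ZFAS1 and in SNHG5 and 3 in SNHG1, and DANCR begins with G.
GAS5: CTTTTCgaggtaggagtcgactcctgtgag
ZFAS1: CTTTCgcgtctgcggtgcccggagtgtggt
SNHG5: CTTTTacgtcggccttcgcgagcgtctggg
SNHG1: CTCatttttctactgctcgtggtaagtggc
DANCR: gcccttgcccagagtcttcccgggattggc

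ZFAS1 rose from 99.4, 100.3 and 129 FPKM to 281, 210 and 201 FPKM (log2 difference 1.06, limma adjusted p = 0.00630), with a clear gap between groups. SNHG5 rose from 16.8 ± 0.976 to 29.9 ± 7.87 FPKM (mean ± SD, n = 3 each; log2 difference 0.76, limma adjusted p = 0.0313), and that call was kept in 5 of 15 alternatives. It was lost without any one of the shNC-1 replicates and without shDLGAP5-1 replicate 1 or 3. SNHG1 did not pass, at 54.5 ± 4.69 FPKM in the controls and 49.0 ± 2.40 FPKM in the knockdown libraries (mean ± SD, n = 3 each; log2 difference −0.15, limma adjusted p = 0.335). 5 sequences chosen after their values were seen are no test of a relation.

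Over the whole list of 27 tested snoRNA host genes, without GAS5 and DANCR, 9 rose and none fell, with a median log2 difference of 0.42. Of all tested genes 15.3% rose. Of the 790 tested long noncoding genes other than the members 30.5% rose, with a median of 0.32, so the count is near the share of that class. SNHG29 rose from 239, 224 and 246 FPKM to 436, 412 and 422 FPKM (log2 difference 0.84, limma adjusted p = 0.00251), the tightest groups among them. SNHG6 rose from 210 ± 14.2 to 347 ± 16.2 FPKM (mean ± SD, n = 3 each; limma adjusted p = 0.00478) and C6orf48, the older symbol of SNHG32, from 62.2 ± 5.12 to 119 ± 19.6 FPKM (mean ± SD, n = 3 each; limma adjusted p = 0.00580). SNHG29, SNHG6, C6orf48, ZFAS1 and EPB41L4A-AS1 kept their calls in all 15 alternatives. SNHG7, SNHG18 and SNHG19 also rose, with log2 differences of 0.94, 0.67 and 0.68. SNHG18 reached 1 FPKM in the knockdown libraries only, so it entered the fit through the group where it was higher. The call of SNHG7 was kept in 12 of 15 alternatives and was lost without shNC-1 replicate 1 or 2. That of SNHG18 was kept in 2 of 11 and was lost without each control library in turn. For SNHG19, 5 of 15 kept the call, and leaving out shNC-1 replicate 1 or 2 or shDLGAP5-1 replicate 1 or 3 ended it. Leaving out shNC-1 replicate 1 or 2 left 5 of the 9 calls, as did using no filter. Of 14 tested factors of nonsense-mediated decay, the pathway that removes GAS5, 2 fell beside 9.52% of all tested genes, and none rose. All 14 log2 differences were below 0, with a median of −0.28 against 0.02 over tested protein-coding genes. The part of these factors in the level of GAS5 was not tested. SMG5, which recruits decay enzymes, fell from 39.5 ± 0.624 to 27.1 ± 4.01 FPKM (mean ± SD, n = 3 each; log2 difference −0.54, limma adjusted p = 0.0232). RBM8A, a core protein of the exon junction complex, fell from 28.4 ± 0.220 to 22.2 ± 0.259 FPKM (mean ± SD, n = 3 each; log2 difference −0.34, limma adjusted p = 0.0320). Neither call was kept with a replicate block, without any one of the shNC-1 replicates or without shDLGAP5-1 replicate 2, and that of RBM8A was lost without shDLGAP5-1 replicate 3 too.

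**Figure D3:**
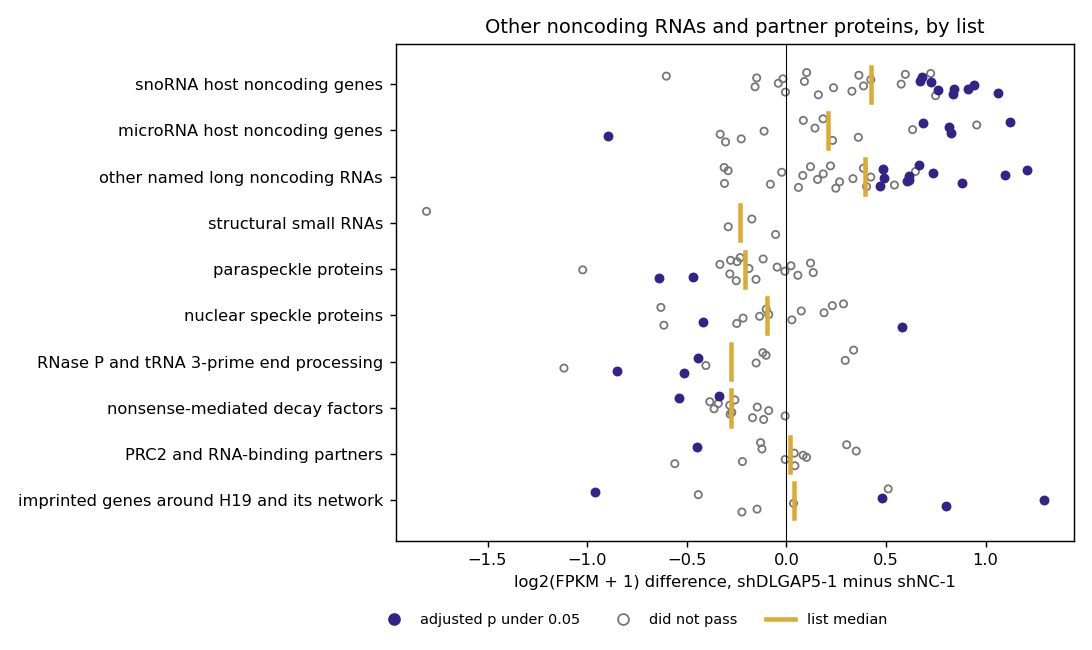
Difference on the log2(FPKM + 1) scale (horizontal axis) of each tested gene in the 10 lists of noncoding RNAs and partner proteins; filled points passed an adjusted p of 0.05, open points did not, and gold bars are list medians. The snoRNA host and other named long noncoding lists lie mostly to the right, with medians of 0.42 and 0.39. The decay factors lie wholly to the left of 0. For comparison, the median was 0.32 over tested long noncoding genes other than the members and 0.02 over tested protein-coding genes.

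TUG1 and PVT1 were higher in shDLGAP5-1 by less than GAS5. TUG1, a conserved RNA named for its rise with taurine in the retina, read 21.8, 20.7 and 18.5 FPKM in the controls and 22.1, 31.9 and 31.9 FPKM in the knockdown libraries. Replicate 1 of the knockdown lay only just above the highest control, and the other 2 well above it. Means were 20.3 ± 1.703 and 28.6 ± 5.67 FPKM (SD, n = 3 each), a log2 difference of 0.46. It was not past the threshold as reported and was without shDLGAP5-1 replicate 1, where the difference was 0.63. TUG1 (ENSG00000253352) lies on the plus strand of chromosome 22 from 30969245 to 30979395. PVT1, which is often amplified together with its neighbour MYC, read 13.1, 15.6 and 13.3 FPKM in the controls and 21.0, 19.9 and 17.4 FPKM in the knockdown libraries. Means were 14.04 ± 1.38 and 19.4 ± 1.82 FPKM (SD, n = 3 each), a log2 difference of 0.44 that was 0.29 with the length trend removed. PVT1 (ENSG00000249859) lies on the plus strand of chromosome 8 from 127794533 to 128187101. MYC, the transcription factor gene 51.6 kb to its left, did not follow the groups. It read 2.90, 29.5 and 3.44 FPKM in the controls and 3.95, 32.3 and 4.35 FPKM in the knockdown libraries, so replicate 2 of each group stood far above the rest (log2 difference 0.25, limma adjusted p = 0.879). PVT1 was highest of the controls in that replicate and in the middle of the knockdown libraries.

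In order of their control means, the 9 ran from GAS5 (135 FPKM) through NEAT1 (30.8), TUG1 (20.3), MALAT1 (14.7), PVT1 (14.04), UCA1 (13.4), MIR22HG (13.1) and DANCR (8.97) to H19 (5.46). The 4 from MALAT1 to MIR22HG lay within their SDs of each other, and H19 had too wide a spread to be placed. In shDLGAP5-1 the order was GAS5 (224), NEAT1 (75.6), MALAT1 (28.6), TUG1 (28.6), PVT1 (19.4), DANCR (6.78), MIR22HG (5.73), UCA1 (2.19) and H19 (0.212). The close group of the controls had thus parted, with MALAT1 and PVT1 above 17 FPKM and MIR22HG and UCA1 below 6 FPKM in each knockdown library. MALAT1 and TUG1 lay within their SDs of each other there. Replicate 1 of the knockdown held the highest value of GAS5, NEAT1, MALAT1 and PVT1 and the lowest knockdown value of TUG1 and DANCR. It also had the largest total, 487559 FPKM, against 413001 to 447253 FPKM in the other libraries. The part of that library's total in these values was not tested. Without it, every one of these 6 differences kept its direction.

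Other long noncoding RNAs also tended to be higher in shDLGAP5-1. Of 790 tested genes of the long noncoding classes other than the 9, 30.5% rose and 4.81% fell, with a median log2 difference of 0.32. Genes that reach 1 FPKM in the knockdown libraries only enter this set through the group where they are higher, which raises the share of rises. Leaving out 1 knockdown library left 677 to 679 tested genes, and leaving out 1 control library left 754 to 756. Of 11259 tested protein-coding genes, 14.4% rose and 10.1% fell (median 0.02). The difference between the classes was not tested, since genes are not replicates. With the length trend removed, 179 long noncoding genes rose and 72 fell, and after quantile normalization 112 rose and 63 fell. The excess of rises over falls was smaller in both. Among 178 long noncoding genes with a mean of at least 5 FPKM, 53 rose and 10 fell. UCA1, MIR22HG and DANCR were lower and so lay on the other side of this shift.

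Of 30 tested RNAs in a list of other named long noncoding RNAs, 11 rose and none fell, with a median log2 difference of 0.39. Over all 790 tested long noncoding genes other than the members, 30.5% rose and the median was 0.32. Of the 11, PCAT6 reached 1 FPKM in the knockdown libraries only and entered the fit through them. CRNDE, first described in colorectal tumours, rose from 13.3, 14.8 and 13.9 FPKM to 25.8, 21.2 and 25.1 FPKM (log2 difference 0.74, limma adjusted p = 0.00580) and kept its call in all 15 alternatives. LINC01278 rose by 0.49 (limma adjusted p = 0.0212), FEZF1-AS1 by 0.62 (limma adjusted p = 0.0360) and LINC00963 by 0.47 (limma adjusted p = 0.0384) on the log2 scale. These 3 calls were kept in 10, 6 and 3 of 15 alternatives, and each was lost without shNC-1 replicate 3 and without at least 1 other control library. The count of 11 was 7 with libraries scaled to the same total, 6 with no filter or a replicate block, 5 after quantile normalization (1 of them lower), 4 with a filter of 5 FPKM, and 5 to 9 with 1 library left out. The 4 tested structural small RNAs, RN7SK, RN7SL1, RN7SL2 and RPPH1, gave no call in the fit with limma, a median of −0.23 and 1 unadjusted p under 0.05, that of RN7SK (0.0369). Without shNC-1 replicate 3, 1 of them passed as lower.

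**Figure D4:**
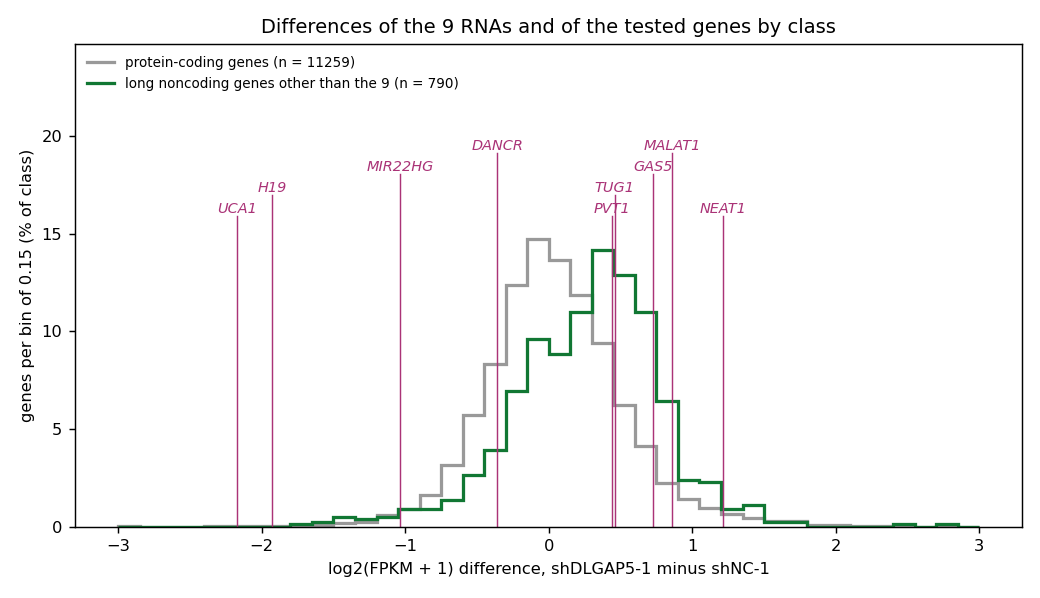
Distribution of the log2(FPKM + 1) difference (horizontal axis, bins of 0.15) over tested protein-coding genes (grey) and long noncoding genes other than the 9 (green), in percent of each class, with a vertical line at the value of each of the 9 RNAs. The green curve lies to the right of the grey one, with medians of 0.32 and 0.02, and UCA1 (−2.17) and H19 (−1.93) stand in the far left tail of both.

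Genes next to the members were examined because some long noncoding RNAs act on their own locus. Within 100 kb and without overlap lay 76 entries, of which 22 were tested, and 4 rose and 2 fell, beside 24.8% of all tested genes called. UCA1 had no tested gene in that range, and the nearest tested genes of the other members were mostly not called. TLCD2, 1.12 kb from MIR22HG, rose from 1.35, 1.20 and 1.49 FPKM to 3.76, 3.62 and 3.005 FPKM (log2 difference 0.93, limma adjusted p = 0.00346), opposite to MIR22HG. SMTN, a smooth muscle cytoskeletal gene 84.7 kb from TUG1, fell from 78.1, 85.0 and 80.8 FPKM to 31.7, 36.1 and 28.2 FPKM (log2 difference −1.33, limma adjusted p = 0.00103), opposite to TUG1. Both kept their calls in every alternative in which they were tested. The other 4 calls are outside the naming rule and were picked after their values were seen. LTBP3, which binds latent TGF-beta and lies 32.3 kb from MALAT1, rose from 21.0 ± 2.02 to 69.4 ± 14.96 FPKM (mean ± SD, n = 3 each; log2 difference 1.66, limma adjusted p = 0.00141). FAM89B and EHBP1L1, farther on the same side of MALAT1, rose by 0.68 and 0.36 on the log2 scale, and OSBP2, 61.4 kb from TUG1, fell by 0.72. The call of OSBP2 was lost without shNC-1 replicate 2, and that of EHBP1L1 was kept in 5 of 15 alternatives, with 5 of the 6 libraries each able to end it.

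The other nearest genes given here did not pass. Between NEAT1 and MALAT1, AP000769.1, a transcribed pseudogene, had a log2 difference of 0.38 (limma adjusted p = 0.298). FRMD8, 9.25 kb to the left of NEAT1, was at 0.20 (limma adjusted p = 0.332). MORC2 starts 0.471 kb from TUG1, which the table classes as sharing a bidirectional promoter, and stood at 7.49 ± 0.364 FPKM in the controls and 8.52 ± 0.638 FPKM in the knockdown libraries (mean ± SD, n = 3 each; log2 difference 0.17, limma adjusted p = 0.308). CENPL and RC3H1 beside GAS5 were at −0.47 and 0.40 (limma adjusted p = 0.0699 and 0.135), and USP46 beside DANCR at −0.43 (limma adjusted p = 0.0726). MRPL23 beside H19 was at 0.51 (limma adjusted p = 0.308) and SMYD4 beside MIR22HG at 0.08 (limma adjusted p = 0.794).

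Entries that overlap a member can share its reads. Of 38 such entries, 7 reached 1 FPKM in any library. Besides MIR22, SNORA26 and MIR4449, they included GAS5-AS1 over GAS5, WDR81 over MIR22HG and RNU1-106P within PVT1. GAS5-AS1, on the opposite strand, was higher along with GAS5, at 0.685, 0.304 and 0.536 against 0.890, 1.16 and 0.870 FPKM. Whether the authors' counting used strand is not given in the sources used here, so antisense reads cannot be told apart. WDR81 had overlapping groups, at 5.33 ± 0.359 and 5.13 ± 1.11 FPKM (SD, n = 3 each). RNU1-106P, a copy of a small nuclear RNA, had overlapping groups too.

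The genes most like each member were found among 8398 genes with a mean of at least 5 FPKM, by the root mean square difference of centred log2(FPKM + 1) values over the 6 libraries. This choice uses the same libraries and is a description. Nearest to UCA1 were ESM1 (0.0724), CXCL3 (0.0789) and ADAMTS1 (0.184). ESM1, a secreted endothelial proteoglycan gene, read 128, 129 and 123 FPKM in the controls and 27.6, 27.0 and 26.8 FPKM in the knockdown libraries. CXCL3, a chemokine gene, read 35.7, 35.2 and 33.6 FPKM and then 7.07, 6.45 and 6.54 FPKM. ADAMTS1, a secreted metalloprotease gene, read 22.2, 22.9 and 20.7 FPKM and then 4.90, 5.82 and 5.24 FPKM. All 3 were, like UCA1, tight within groups and far apart between them. The single nearest genes of the others were TVP23B for MALAT1 (0.0939), CARHSP1 for NEAT1 (0.130), PLSCR1 for GAS5 (0.0279), WDR77 for MIR22HG (0.133), NPTN for PVT1 (0.0462), OAS3 for TUG1 (0.0403) and ERI1 for DANCR (0.0308). H19 had the poorest match, RN7SK at 0.396.

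Windows of 300 bases around the RefSeq start (250 before to 50 after, GRCh38.p14) were found for 6 members, GAS5, DANCR, H19, MALAT1 (2 windows), MIR22HG and TUG1. Both strands were searched for 6 motifs. The hypoxia response core ACGTG, held by 21.4% of 35116 windows, occurred once in MIR22HG. The E-box CACGTG, held by 7.26%, occurred once in TUG1. It reads as the hypoxia core on either strand, and the 2 core matches counted in TUG1 are that single E-box. The antioxidant response core TGACNNNGC, held by 13.3%, occurred at 2 places in 1 window of MALAT1. The AP-1 motif TGANTCA (7.71% of windows), the TEAD motif GGAATG (14%) and the ETS motif CCGGAAG (10.3%) occurred in none of the 7 windows. A match or its lack describes these letters only.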

How the data were processed

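RNA-seq libraries of T24 cells with shNC-1 or shDLGAP5-1 (3 each) were grouped by their titles. Control columns carry NC and a sample number. The other 3 carry a construct number and were given to shDLGAP5-1, the only other group. The authors deposited 1 table of normalized values, which the values show to be FPKM, with GRCh38 coordinates. Its header names no unit. Aligner, quantifier, annotation and strandedness were not given in the sources used here. FPKM divide by length and total, so a shift in abundant or short transcripts moves all other genes.

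The fit, by limma 3.58.1 in R 4.3.3 with a variance trend, took every gene that reached 1 FPKM in 3 or more libraries, on a log2(FPKM + 1) scale that understates changes of low genes. Group was the only term, and p-values were adjusted (Benjamini-Hochberg) over all 12714 tested genes, with 0.05 as the threshold. The fit was tested on simulated data. Rows were taken from that one fit. Alternatives were other scalings, 0.1 as pseudocount, a filter of 5 FPKM or none, a replicate block, removal of each library's trend with transcript length, and leaving out each library. Counts by gene class and of members past the threshold were added after seeing the data.

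Members and gene lists were chosen with earlier results of these data known. Named genes were the members, DLGAP5, up to 4 genes per list that passed with the smallest p and a mean of at least 5 FPKM, the nearest tested gene on each side of a member, the genes most like each member in pattern, and overlapping entries that reach 1 FPKM. Others were picked after their values were seen. Of the table's identifiers, 58552 are in GENCODE 29, which gave transcripts and lengths. Some items that these rules name are not reported here.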

Additional observations from a re-analysis of the deposited data

How the results depend on the processing

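No difference of a member changed sign in any of 15 alternatives. That of UCA1 was −2.27 with libraries scaled to the same total, −2.29 after quantile normalization, −2.56 with a pseudocount of 0.1, and −2.21 to −2.12 with 1 library left out. UCA1, NEAT1 and MIR22HG were past the threshold in all 15 alternatives, GAS5 in 13, and MALAT1, PVT1 and DANCR in 4 each. GAS5 was not without shNC-1 replicate 1 or 2. The groups of MALAT1 overlapped in 3 alternatives and those of TUG1 in 1. The number of members past it, 6, was 3 to 7 with 1 library left out, and the 3 came without shNC-1 replicate 1 or 2. Over all tested genes, same-numbered libraries deviated together with correlations of −0.155, 0.021 and −0.157, and differently numbered ones with −0.0654 to 0.193. These values show no pairing by number over the genes as a whole. MYC did stand far above the rest in replicate 2 of both groups, and whether same-numbered libraries were handled together was not tested. With a replicate block the calls over all genes went from 3155 to 1464, those among long noncoding genes other than the members from 279 to 143, and those among protein-coding genes from 2759 to 1268. The block left 2 microRNA hosts, 6 other named long noncoding RNAs, 1 paraspeckle protein, 1 speckle protein, 0 decay factors and 0 of the PRC2 and RNA-binding list. Together with removal of the length trend it left 162 long noncoding genes, 6 other named long noncoding RNAs and 0 of the PRC2 and RNA-binding list.

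With no filter, calls were 2071 over all genes, 1708 protein-coding genes, 5 snoRNA hosts, 2 microRNA hosts, 6 other named long noncoding RNAs, 1 paraspeckle protein, 1 speckle protein, 1 RNase P gene, 1 decay factor, 0 of the PRC2 and RNA-binding list and 2 imprinted genes. With a filter of 5 FPKM they were 73 long noncoding genes, 2 microRNA hosts and 4 other named long noncoding RNAs, from fewer genes tested. Same-total scaling gave 3 microRNA hosts and 7 other named long noncoding RNAs. Quantile normalization gave 175 long noncoding genes, 5 other named long noncoding RNAs, 1 speckle protein and 1 decay factor. Removal of the length trend gave 4 paraspeckle proteins, 4 speckle proteins, 5 RNase P genes, 2 of the PRC2 and RNA-binding list and 10 neighbours. The cause of these changes was not tested.

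With 1 library left out, calls ranged from 1326 to 2806 over all genes, 122 to 180 among long noncoding and 1160 to 2521 among protein-coding genes. The ranges were 5 to 9 snoRNA hosts, 3 to 5 microRNA hosts, 5 to 9 other named long noncoding RNAs, 0 to 1 structural small RNAs, 0 to 3 paraspeckle proteins, 0 to 4 speckle proteins, 1 to 3 RNase P genes, 0 to 2 decay factors, 0 to 1 of the PRC2 and RNA-binding list, 1 to 3 imprinted genes and 4 to 8 neighbours. Depth limits H19 in shDLGAP5-1, where its level rests on about 6 to 9 fragments per library if its longest transcript is taken as length.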
